A study of Rattus norvegicus with 9 samples.

Results

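The genes described here are 10 markers by which liver macrophages are told apart: Cd68 and Adgre1, which macrophages share, Clec4f, Marco, Vsig4, Timd4, Cd163 and Cd5l, which mark resident Kupffer cells, and Trem2 and Gpnmb, which mark macrophages recruited into injured liver. They were found by gene name in the deposited table of 32883 genes, which holds 9 of the 10, with 5 of the 6 Kupffer cell markers. Timd4 was not analysed here. Liver RNA was sequenced from 9 male Sprague-Dawley rats, with 1 library per rat and 3 rats in each group. Normal rats (numbers 1, 3 and 12) received a normal diet. DEN model rats (13, 17 and 24) received weekly intraperitoneal diethylnitrosamine (DEN), a liver carcinogen, at 0.01% over 16 weeks, and DEN + PZH rats (27, 28 and 42) received DEN together with Pien-Tze-Huang (PZH), a traditional Chinese medicine. The rats' ages, the PZH dose and the week at which each sequenced rat was killed are not given in the sources used here. Rats were grouped by the letter that opens their names (N, M or G). The treatment tag in the deposited labels reads PZH for the M rats as well, so the DEN model label rests on the names and on the study's methods.

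Kupffer cells line the liver sinusoids and clear bacteria, old red cells and debris from portal blood. They are seeded in embryonic life and renew themselves in the healthy liver, and they lose part of their marker programme when they are injured or replaced. Monocytes that enter a damaged liver can become macrophages that carry Trem2 and Gpnmb and gather in scar tissue, and some of them take on Kupffer cell markers with time. In whole liver RNA, fewer cells of a type and less RNA per cell cannot be told apart, and none of the genes is read here as a count of cells.

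Total counts ranged from 14922973 to 27161496 per rat, the deepest library being DEN + PZH rat 27. Levels are given as CPM, the counts of a gene scaled to a library of 1000000 counts, after TMM scaling, an edgeR adjustment for libraries in which a few abundant genes take a large share of the reads. TMM factors were 0.731 to 0.799 in normal rats, 1.21 to 1.58 in DEN model rats and 0.863 to 0.941 in DEN + PZH rats, so the scaling itself differed between the groups. Scaled by library totals alone, the log2 fold change of the median gene moved from 0.03 to 0.89 in DEN model against normal rats and from 0.01 to -0.67 in DEN + PZH against DEN model rats. Every level and fold change below is on the TMM scale unless stated. Hepatocyte markers such as Alb (albumin) were present in every rat, with the 8 listed markers summing to 36144 CPM or more.

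In the table, whose genome build is not named in the sources used here, the shared genes lay as follows: Cd68 (ENSRNOG00000037563) at chr10:56268720-56270640 and Adgre1 (ENSRNOG00000046254) at chr9:9431860-9585865. The Kupffer cell genes were Clec4f (ENSRNOG00000013137) at chr4:115322291-115332052, Marco (ENSRNOG00000049303) at chr16:85115201-85135859, Vsig4 (ENSRNOG00000038132) at chrX:65370851-65400298, Cd163 (ENSRNOG00000010253) at chr4:156752082-156785467 and Cd5l (ENSRNOG00000023068) at chr2:186685104-186696117. The recruited genes were Trem2 (ENSRNOG00000013578) at chr9:14611561-14618013 and Gpnmb (ENSRNOG00000008816) at chr4:78694447-78715683. The table puts Marco on chromosome 16, whereas RefSeq's GRCr8 annotation puts it on chromosome 13. The span of Cd5l overlaps that of Fcrl1, and whether counting used strand is not given in the sources used here. Fcrl1 held 3 to 18 counts per rat, against 584 to 3554 for Cd5l.

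The sequences just upstream of the gene starts are shown for Gpnmb and Trem2, the recruited markers, for Cd68, the shared marker to which the others are compared, and for Clec4f, the Kupffer cell marker with the highest level. Each line is the 250 bases before the start in RefSeq's rat assembly GRCr8, written 5′ to 3′ on the gene's own strand, and capitals mark the motifs searched. These motifs, sought on both strands, were GAGGAAG, a purine-rich sequence of the kind bound by the macrophage factor PU.1, and TCACATG and TCACGTG, sequences of the kind bound by the Mitf and Tfe family, whose members control lysosome genes.
Gpnmb, chr4:79340878-79341127, plus strand: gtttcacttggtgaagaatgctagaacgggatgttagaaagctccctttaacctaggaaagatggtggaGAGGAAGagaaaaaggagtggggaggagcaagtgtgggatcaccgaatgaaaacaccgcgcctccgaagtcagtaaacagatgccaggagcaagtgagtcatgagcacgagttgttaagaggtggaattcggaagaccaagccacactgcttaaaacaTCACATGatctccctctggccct
Trem2, chr9:20151780-20152029, minus strand: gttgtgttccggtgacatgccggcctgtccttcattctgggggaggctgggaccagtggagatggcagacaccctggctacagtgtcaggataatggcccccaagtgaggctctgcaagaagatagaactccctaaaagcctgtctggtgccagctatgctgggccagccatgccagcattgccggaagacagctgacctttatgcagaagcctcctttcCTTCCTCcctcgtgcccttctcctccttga
Cd68, chr10:54882442-54882691, minus strand: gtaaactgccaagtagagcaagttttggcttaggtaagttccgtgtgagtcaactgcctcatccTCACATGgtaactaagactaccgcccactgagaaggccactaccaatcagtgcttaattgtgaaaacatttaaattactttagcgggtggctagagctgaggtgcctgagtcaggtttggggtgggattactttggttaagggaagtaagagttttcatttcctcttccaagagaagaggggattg
Clec4f, chr4:117696408-117696657, minus strand: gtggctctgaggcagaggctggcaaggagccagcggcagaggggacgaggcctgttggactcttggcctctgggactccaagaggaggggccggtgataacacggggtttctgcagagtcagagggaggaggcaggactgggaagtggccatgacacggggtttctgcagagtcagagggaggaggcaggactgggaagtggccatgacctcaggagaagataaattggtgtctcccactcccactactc
All 10 genes had an entry in the RefSeq table. GAGGAAG or its reverse complement was found upstream of 5 of them (Adgre1, Marco, Cd5l, Trem2 and Gpnmb), against 10.2% of 33469 promoters of the same length. TCACATG was found upstream of Cd68 and of Gpnmb, beginning 186 and 23 bases before the start, against 3.36% of promoters. TCACGTG was found upstream of 0 of the 10 and in 2.79% of promoters. The 5 genes with GAGGAAG included Kupffer cell, recruited and shared markers, and a match is a description of the letters in this window only.

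The comparison of DEN model with normal rats asks what the carcinogen did to the macrophage markers. Of the Kupffer cell markers 4 of 5 (Clec4f, Marco, Vsig4 and Cd5l) fell, and the recruited marker Gpnmb rose, by edgeR's quasi-likelihood test at an adjusted p under 0.05. Trem2 also passed, as 1 of 6 calls among the 9 genes, but it had 0 counts in every normal rat and entered the test only through the DEN model rats, so its call adds no support and is given for completeness. Over all 14255 genes tested, 45.8% passed in either direction, 25.3% higher and 20.5% lower. The 5 Kupffer cell genes had a median log2 fold change of -1.28, against 0.03 for all genes tested. Cd163, Cd68 and Adgre1 did not pass. The levels of 5 of the 9 genes did not overlap between the groups, beside 58.8% of all genes tested.

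**Figure D1:**
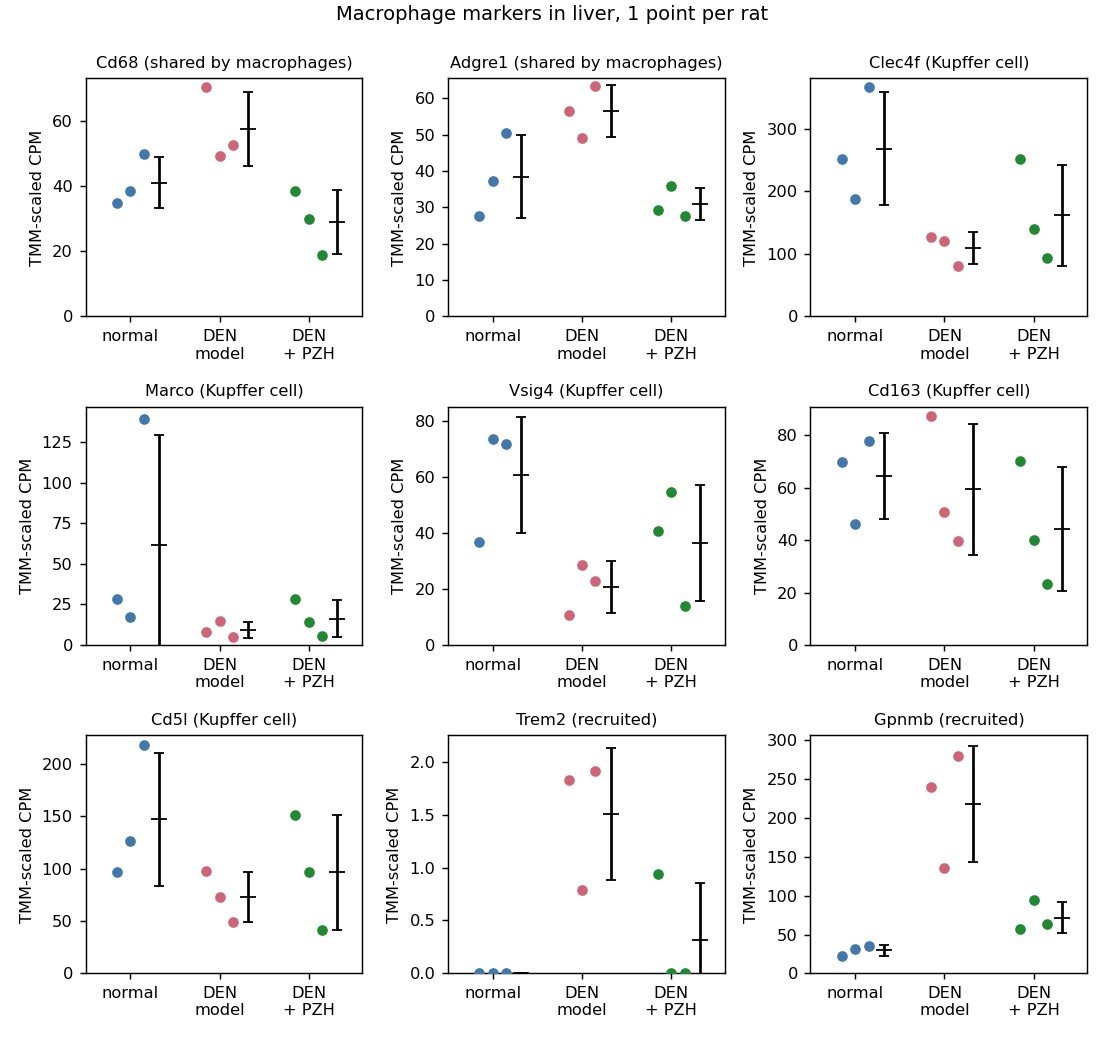
TMM-scaled CPM (vertical axis, linear and starting at 0) of the 9 genes, 1 panel per gene. Each point is a rat, the bar and whiskers are the mean and SD over 3 rats, and whiskers that would pass below 0 stop there. Gpnmb stands at 135 to 280 CPM in DEN model rats and at 22.0 to 35.7 CPM in normal rats, while Clec4f stands at 79.8 to 127 and 187 to 366 CPM.

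Clec4f encodes a C-type lectin that, within the rodent liver, is made by Kupffer cells. Its level was 251, 187 and 366 CPM in normal rats 1, 3 and 12 and 127, 121 and 79.8 CPM in DEN model rats 13, 17 and 24. The groups did not overlap, and the mean fell from 268 ± 90.5 to 109 ± 25.8 CPM (± SD over 3 rats), for a log2 fold change of -1.28 (SE 0.30, edgeR adjusted p = 0.0090). With library totals the value was -0.44 (adjusted p = 0.21), which did not pass but still lay below the median of all genes on that scale.

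Vsig4, the complement receptor of the immunoglobulin superfamily through which Kupffer cells catch C3b-coated bacteria, was at 36.6, 73.3 and 71.9 CPM in normal rats 1, 3 and 12. In DEN model rats 13, 17 and 24 it was at 10.6, 28.6 and 22.7 CPM. All DEN model rats lay below all normal rats, with a log2 fold change of -1.54 (SE 0.39, edgeR adjusted p = 0.013), which was -0.70 (adjusted p = 0.10) with library totals.

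Marco is a scavenger receptor with a collagen-like domain that binds bacteria. It varied most among normal rats, at 28.3, 17.2 and 139 CPM in rats 1, 3 and 12, and was at 8.27, 14.8 and 4.86 CPM in DEN model rats 13, 17 and 24. The groups did not overlap, though normal rat 3 and DEN model rat 17 differed by little, and the log2 fold change was -2.72 (SE 0.77, edgeR adjusted p = 0.020). Normal rat 12 carried much of that size, since without it the value was -1.27 (adjusted p = 0.062). The call was also lost without DEN model rat 13 (adjusted p = 0.058) or 24 (adjusted p = 0.055).

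Cd5l, a secreted scavenger protein also called AIM, was at 97.1, 126 and 219 CPM in normal rats 1, 3 and 12 and at 97.6, 72.6 and 49.4 CPM in DEN model rats 13, 17 and 24. Normal rat 1 and DEN model rat 13 stood at about the same level, so the groups overlapped. Its log2 fold change of -1.0 (SE 0.35, edgeR adjusted p = 0.046) was the call closest to the threshold among the 6. It did not pass without DEN model rat 17 or 24, without normal rat 3 or 12, nor under library totals, upper-quartile factors, no filter, a filter of 10 counts in every rat or a fit of all 3 groups.

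Cd163, the receptor for haptoglobin-haemoglobin complexes, did not follow the other Kupffer cell markers past the threshold. Normal rats 1, 3 and 12 stood at 69.9, 46.3 and 77.8 CPM and DEN model rats 13, 17 and 24 at 87.6, 50.9 and 39.7 CPM. The ranges overlapped throughout, and the log2 fold change of -0.11 (SE 0.31, edgeR adjusted p = 0.80) turned positive with library totals (0.75) and with upper-quartile factors (0.04).

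Gpnmb, a membrane glycoprotein of lysosome-rich macrophages, showed the largest rise among the 9 genes apart from Trem2, which had no reads in normal rats. It was at 22.0, 31.3 and 35.7 CPM in normal rats 1, 3 and 12 and at 240, 135 and 280 CPM in DEN model rats 13, 17 and 24. The lowest DEN model rat stood well above the highest normal rat, and the mean rose from 29.7 ± 6.99 to 218 ± 74.5 CPM (± SD over 3 rats), for a log2 fold change of 2.89 (SE 0.33, edgeR adjusted p = 0.00038). Over 12 alternative analyses its log2 fold change ran from 2.68 to 3.81, and it passed the test in each.

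Trem2, a lipid-sensing receptor that signals through Tyrobp, was rare in every rat. It had 0 counts in all 3 normal rats, where 3 counts would amount to 0.229 to 0.252 CPM, and 43, 16 and 46 counts in DEN model rats 13, 17 and 24. DEN model rats averaged 1.51 ± 0.622 CPM, and against a floor of 3 counts per normal library Trem2 was at least 6.33-fold higher. Because it reached the test through the DEN model rats alone, no p is given for it. At the study's own thresholds, more than 2 log2 units in either direction at an unadjusted p under 0.001, Gpnmb passed, as did Trem2 with the limit just given, against 12.3% of all genes tested.

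Among the shared markers, Cd68, a lysosomal membrane protein of phagocytes, was at 34.8, 38.5 and 49.9 CPM in normal rats 1, 3 and 12 and at 70.4, 49.3 and 52.6 CPM in DEN model rats 13, 17 and 24. Adgre1, which encodes the F4/80 antigen, was at 27.7, 37.3 and 50.4 CPM in the same normal rats and at 56.7, 49.2 and 63.5 CPM in the same DEN model rats. Both had overlapping groups. Their log2 fold changes were 0.50 (SE 0.21, edgeR adjusted p = 0.082) and 0.57 (SE 0.24, edgeR adjusted p = 0.081), so neither passed. Both passed, and were higher, with library totals (1.37 and 1.45, adjusted p = 0.0013 and 0.0015) and with upper-quartile factors (0.64 and 0.71, adjusted p = 0.034 and 0.036).

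Levels of different genes can be compared only per length, which the authors' FPKM values allow, although FPKM are scaled by library total and not by TMM. Clec4f had the highest FPKM of the 9 genes in every normal rat, at 71.0 to 152, followed in each by Cd5l. In DEN model rats 13 and 24 Gpnmb took first place, at 155 and 191 FPKM, with Clec4f at 98.3 and 65.4. In DEN model rat 17 Clec4f (76.2 FPKM) and Gpnmb (71.3 FPKM) stood close together. Trem2 was last in every rat, at 2.61 FPKM or less. In normal rats Gpnmb (9.96 ± 2.39 FPKM), Adgre1 (9.13 ± 2.88 FPKM) and Cd163 (11 ± 3.22 FPKM) differed by less than their SD over 3 rats.

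The comparison of DEN + PZH with DEN model rats asks which of these differences were smaller in rats that also received PZH. Gpnmb, Cd68 and Adgre1 fell, and 0 of the 5 Kupffer cell markers passed edgeR's test. The 3 lower calls among 9 genes stand beside 10.3% lower, 8.72% higher and 19.1% in either direction over 14272 genes tested, and the 3 without overlap beside 40.9% of all genes. For the Kupffer cell markers, 0 of 5 also had an unadjusted p under 0.05, and DESeq2 called 0 of them. Their median log2 fold change was 0.59, against 0.01 for all genes. At the study's thresholds 0 of the 9 genes passed, against 2.43% of all genes.

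Gpnmb was at 56.9, 94.3 and 64.0 CPM in DEN + PZH rats 27, 28 and 42, each below the lowest DEN model rat at 135 CPM. Its mean fell from 218 ± 74.5 to 71.8 ± 19.9 CPM, a log2 fold change of -1.58 (SE 0.32, edgeR adjusted p = 0.017).

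Cd68 was at 38.5, 29.8 and 18.9 CPM in DEN + PZH rats 27, 28 and 42 (log2 fold change -0.95, SE 0.28, edgeR adjusted p = 0.048), and Adgre1 at 29.3, 36.0 and 27.7 CPM (log2 fold change -0.84, SE 0.18, edgeR adjusted p = 0.020). For both genes all DEN + PZH rats lay below all DEN model rats. The 3 calls rested on single rats, because without DEN model rat 13, DEN model rat 24 or DEN + PZH rat 42 none of the 9 genes passed. Adjusted p without these rats was 0.055 to 0.068 for Gpnmb, 0.064 to 0.081 for Adgre1 and 0.098 to 0.17 for Cd68, and all 3 log2 fold changes stayed negative. Over all genes the calls went from 2722 to 271, 725 and 1221 in the same order. The call of Cd68 was also lost without DEN + PZH rat 28 (adjusted p = 0.12).

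The Kupffer cell markers spread widely over the DEN + PZH rats. Clec4f was at 251, 139 and 93.3 CPM in rats 27, 28 and 42, a range that reached from the level of normal rat 1 into that of the DEN model rats. Marco was at 28.2, 14.2 and 5.69 CPM and Cd5l at 152, 96.6 and 41.6 CPM in the same rats. Vsig4 stood apart in its order, at 40.6, 54.5 and 14.0 CPM, and Cd163 was at 70.1, 40.0 and 23.3 CPM. Rat 42 was the lowest for each of the 5 genes, and rat 27, the deepest library, was the highest for all but Vsig4.

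Against DEN model rats the log2 fold changes were 0.59 for Clec4f (SE 0.37, edgeR adjusted p = 0.30), 0.83 for Marco (SE 0.58, edgeR adjusted p = 0.35) and 0.84 for Vsig4 (SE 0.51, edgeR adjusted p = 0.27). Cd5l had 0.43 (SE 0.45, edgeR adjusted p = 0.53) and Cd163 -0.38 (SE 0.43, edgeR adjusted p = 0.56). With library totals the values of Clec4f (-0.09) and Cd5l (-0.26) were negative. A value that misses the threshold does not show that the levels were alike.

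Trem2 had 22, 0 and 0 counts in DEN + PZH rats 27, 28 and 42. Its log2 fold change against DEN model rats was -2.01 (SE 1.06, edgeR adjusted p = 0.21). It passed only when rat 27 was left out, which left 0 counts in each remaining DEN + PZH rat. There it entered the test only through the DEN model rats, so that pass adds no support and no p is given for it. In rats 28 and 42, 0 counts allow a level of up to 0.209 and 0.214 CPM, as a limit for counting error only.

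DEN + PZH and normal rats were compared last, with the same DEN + PZH rats as above and the same normal rats as in the first comparison. Gpnmb remained higher with PZH, with a log2 fold change of 1.27 (SE 0.27, edgeR adjusted p = 0.029) and no overlap between 22.0 to 35.7 CPM and 56.9 to 94.3 CPM. It was the 1 gene called among the 8 tested, beside 5.21% of 13348 genes in either direction, 4.07% higher and 1.15% lower, and the 1 without overlap beside 24.2%. At the study's thresholds 0 of the 8 passed, beside 2.32% of all genes. The call held in 1 of 6 analyses that left out a rat, that without DEN + PZH rat 27, and adjusted p was 0.055 to 0.12 in the other 5. Of the Kupffer cell markers 0 of 5 passed edgeR's test, 1 of 5 (Marco) had an unadjusted p under 0.05 and DESeq2 called 0. Their log2 fold changes ran from -1.91 for Marco (SE 0.79, edgeR adjusted p = 0.23) to -0.53 for Cd163 (SE 0.37, edgeR adjusted p = 0.51). Without DEN + PZH rat 27 Clec4f was also called (log2 fold change -1.20, adjusted p = 0.043). Trem2, at 0 in 5 of the 6 rats, was not tested.

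**Figure D2:**
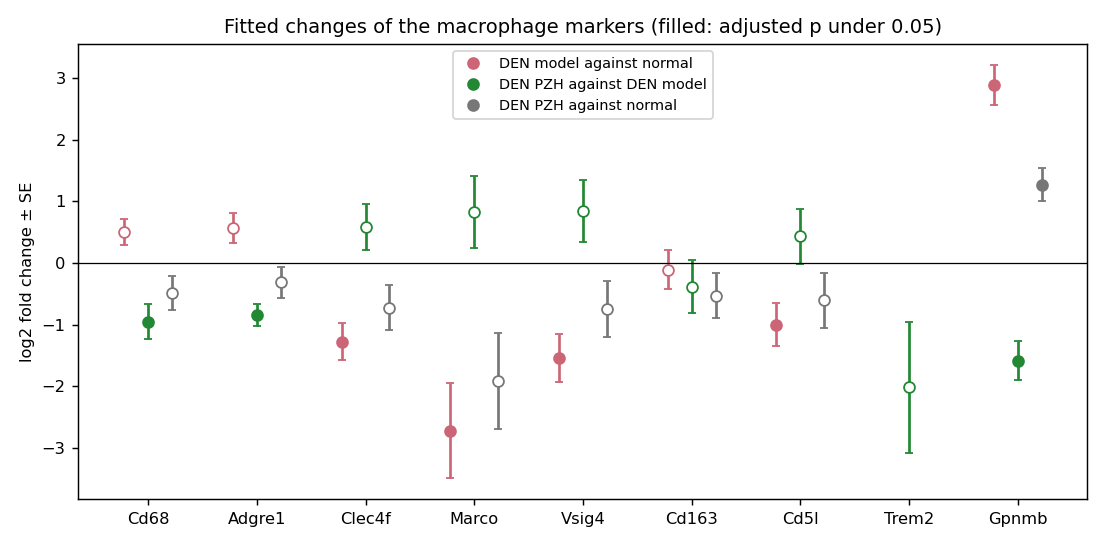
Log2 fold change of each gene (vertical axis, TMM scale) in the 3 comparisons, with bars of 1 SE. Filled points passed edgeR's test at an adjusted p under 0.05. Trem2 is left out where all normal rats are at 0; Gpnmb is filled in all 3 comparisons, at 2.89, -1.58 and 1.27.

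How far the directions depended on library scaling was read from 4 scalings. Gpnmb kept its direction and its call under TMM, DESeq2 size factors, upper-quartile factors and library totals in all 3 comparisons. In DEN model against normal rats Clec4f, Marco, Vsig4 and Cd5l were lower under each of the 4, and Marco alone of them was called under library totals. Library totals gave 5 calls in place of 6, with 4 higher and 1 lower. Over all genes, the share of calls that were higher was 55.3% with TMM and 89.5% with library totals in this comparison, and 45.7% and 8.89% in DEN + PZH against DEN model rats.

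**Figure D3:**
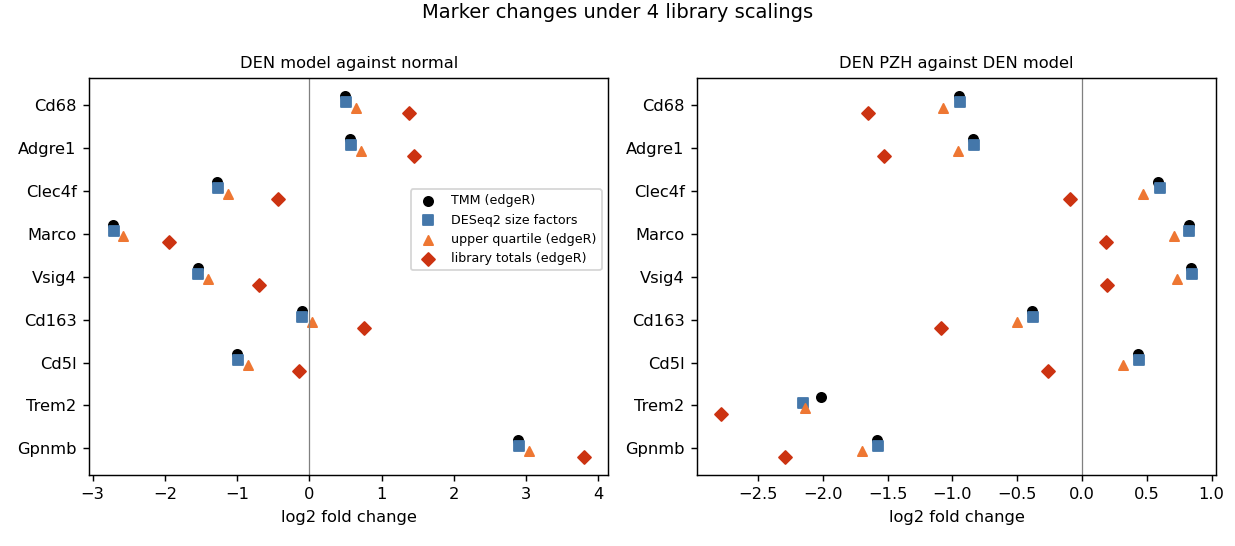
Log2 fold change of each gene (horizontal axis) under 4 library scalings, 1 panel per comparison. Values by library totals lie to the right of the others in DEN model against normal rats and to the left in DEN + PZH against DEN model rats, in step with the median of all genes (0.89 and -0.67).

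A ratio of 2 genes within 1 library does not depend on library scaling, and each gene was therefore also divided by Cd68. Clec4f had 7.22, 4.86 and 7.33 counts per Cd68 count in normal rats 1, 3 and 12, 1.81, 2.46 and 1.52 in DEN model rats 13, 17 and 24, and 6.53, 4.67 and 4.93 in DEN + PZH rats 27, 28 and 42. The DEN model rats stood below all others and the other groups overlapped. Between DEN model and normal rats the ratio was 3.36-fold lower (exact two-sided permutation p = 0.10, the smallest that 3 against 3 rats can give, and 0.20 after adjustment over 24 ratios).

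Marco, Vsig4 and Cd5l had lower ratios in every DEN model rat than in any normal rat, by 6.76-fold, 4.24-fold and 2.75-fold, and Trem2 and Gpnmb had higher ones. In all, 6 of 8 ratios did not overlap, 4 lower and 2 higher, where 56.7% of all genes tested did not overlap, 37.7% lower and 19% higher. Gpnmb had 0.632, 0.813 and 0.716 counts per Cd68 count in normal rats 1, 3 and 12 and 3.40, 2.75 and 5.31 in DEN model rats 13, 17 and 24. Cd163 and Adgre1 overlapped between the groups. Cd68 itself had a log2 fold change of 0.50 in this comparison, without passing, and the lower ratios of Clec4f, Marco, Vsig4 and Cd5l include that difference.

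Between DEN + PZH and DEN model rats, Clec4f, Marco, Vsig4 and Cd5l had higher ratios to Cd68 without overlap, 4 of 8. For Marco the separation was slight, with 0.30 counts per Cd68 count in both DEN + PZH rat 42 and DEN model rat 17. Of all genes 58% did not overlap, 55% higher and 3.06% lower, so the share among these markers is near the background, and Cd68 itself was lower in DEN + PZH rats. Gpnmb overlapped on this scale, at 1.48, 3.17 and 3.38 counts per Cd68 count in DEN + PZH rats 27, 28 and 42. Between DEN + PZH and normal rats 2 of 8 ratios did not overlap, Gpnmb and Trem2, beside 23.1% of all genes, 21.9% higher and 1.18% lower. For Trem2 the DEN + PZH and normal values at 0 counts differ only through the Cd68 counts and the 0.5 added to each count, so its separation there carries no information.

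**Figure D4:**
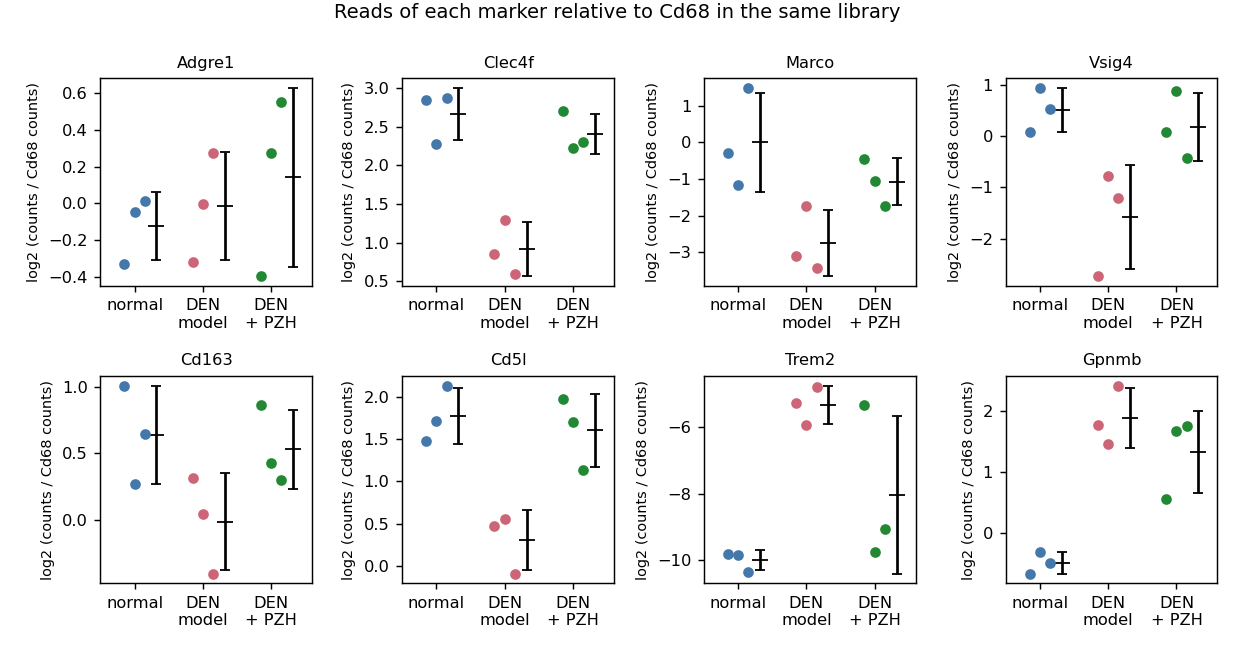
Log2 of each gene's counts over the Cd68 counts of the same rat, with 0.5 added to each count (vertical axis), by group; points are rats and bars with whiskers are mean and SD over 3 rats. Clec4f, Marco, Vsig4 and Cd5l lie lowest in DEN model rats and Gpnmb lies lowest in normal rats; Trem2 at 0 counts is placed by the added 0.5.

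With Laptm5, another leukocyte gene, as the reference in place of Cd68, a choice made after the data had been seen, all 8 ratios separated DEN model from normal rats, with Trem2 and Gpnmb higher and the other 6 lower. Of all genes set against Laptm5, 75.7% separated these groups in one direction or the other. Trem2 again had 0 counts in every normal rat, so its separation here adds no support either. Gpnmb was also set directly against Clec4f, again after the data had been seen. There were 0.0876, 0.167 and 0.0976 Gpnmb counts per Clec4f count in normal rats 1, 3 and 12, 1.88, 1.12 and 3.50 in DEN model rats 13, 17 and 24, and 0.227, 0.678 and 0.686 in DEN + PZH rats 27, 28 and 42. These count ratios are not corrected for gene length and are compared only between rats. The DEN model ratio was 17.3-fold that of normal rats and the DEN + PZH ratio 4.12-fold lower than that of DEN model rats, and the DEN + PZH ratio was still 4.19-fold that of normal rats, with no overlap in any of the 3 cases (exact two-sided permutation p = 0.10 for each, the smallest possible). Without overlap and in the same direction were 66.8%, 23.5% and 22.2% of all genes set against Clec4f.

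Other genes were read from lists chosen for their known roles in these cells. In whole liver RNA other cells can add to the reads of such genes, and which cells gave them was not tested. Each count of list genes called stands against the shares over all genes: 25.3% higher and 20.5% lower in DEN model against normal rats, 8.72% and 10.3% in DEN + PZH against DEN model rats, and 4.07% and 1.15% in DEN + PZH against normal rats. Of the recruited and scar-associated macrophage genes, 13 of 13 tested rose in DEN model against normal rats (25.3% of all genes did), with a median log2 fold change of 3.62. Among those with at least 10 counts in every rat 8 of 8 rose. The 13 included Spp1 (osteopontin), from 1.06 ± 0.242 to 63.4 ± 52.9 CPM, Mmp12 (macrophage elastase), from 0.894 ± 0.646 to 24.5 ± 5.33 CPM, and Fabp4, a fatty acid binding protein, from 1.31 ± 0.526 to 25.7 ± 14.6 CPM. Their edgeR adjusted p was 0.00041, 0.00025 and 0.00067. Mmp12 had 3, 11 and 20 counts in normal rats 1, 3 and 12. It is therefore not among the 8, and low counts limit its adjusted p. Spp1 is made by ductular cells as well and stands in both lists.

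In DEN + PZH against DEN model rats 8 of the 13 fell (10.3% of all genes did), with a median log2 fold change of -1.38. Spp1 was among them (-2.96, edgeR adjusted p = 0.029), while Mmp12 (-0.81, edgeR adjusted p = 0.067) and Fabp4 (-1.52, edgeR adjusted p = 0.12) did not pass. The count depended on single rats: it was 0 without DEN model rat 13, 2 without DEN + PZH rat 42, 3 without DEN model rat 24 and 3 without DEN + PZH rat 28. Against normal rats 7 of 13 were higher in DEN + PZH rats (4.07% of all genes were). That count was 3 without DEN + PZH rat 28 or normal rat 1, 4 without DEN + PZH rat 42 or normal rat 3 or 12, and 8 without DEN + PZH rat 27.

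Of 14 pan-macrophage genes, 8 rose and 1 (Cd14) fell in DEN model against normal rats (25.3% and 20.5% of all genes did), with a median log2 fold change of 0.94. With library totals 13 were higher and 0 lower (median 1.82), and with upper-quartile factors 10 and 0, so the call of Cd14 was lost under both; it was also lost with at least 10 counts in every rat and without DEN model rat 13 or 17 or normal rat 3 or 12. Lyz2 (lysozyme) had the largest change, from 28.2 ± 6.10 to 332 ± 151 CPM (edgeR adjusted p = 0.00032), and Ptprc (CD45) and Cybb (an NADPH oxidase subunit) had log2 fold changes of 1.75 and 1.53. Csf1r, the receptor for the macrophage growth factor, did not pass (0.53, edgeR adjusted p = 0.12). In DEN + PZH against DEN model rats 8 of 14 fell, Csf1r (-0.99, edgeR adjusted p = 0.032) and Lyz2 (-2.05, edgeR adjusted p = 0.016) among them. That count was 0 without DEN model rat 13 or DEN + PZH rat 42, 1 without DEN model rat 24 and 3 without DEN + PZH rat 28.

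The list of other Kupffer cell genes, 11 rows for 10 genes, had 3 rows higher and 2 lower in DEN model rats, with a median log2 fold change of 0.30. These shares are near those over all genes (25.3% and 20.5%), and the list depended on scaling and on single rats. With library totals 6 rows were higher and 1 lower (median 1.15), without normal rat 12 the median was 1.06, and 1 row was higher without DEN model rat 13, DEN model rat 24 or normal rat 1. C6, a complement component that hepatocytes also make, fell by 1.87 on the log2 scale (edgeR adjusted p = 0.0045), and Nr1h3, the nuclear receptor LXR alpha, which hepatocytes also express, fell by 1.33 (edgeR adjusted p = 0.0042). Spic, a transcription factor of iron-recycling macrophages, rose by 1.62 (edgeR adjusted p = 0.019). The other 2 higher rows both carry the name Slc40a1 (ferroportin) and were named after their values were seen.

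The macrophage growth factor Csf1 was at 14.3, 9.65 and 14.3 CPM in normal rats 1, 3 and 12 and at 39.3, 38.3 and 33.8 CPM in DEN model rats 13, 17 and 24. It rose without overlap (log2 fold change 1.56, SE 0.20, edgeR adjusted p = 0.00063) and fell in DEN + PZH against DEN model rats (-1.11, SE 0.24, edgeR adjusted p = 0.020). Ccl2, the main monocyte attractant, rose from 0.240 ± 0.141 to 6.56 ± 3.64 CPM (edgeR adjusted p = 0.00071), and the ligand Cx3cl1 from 0.822 ± 0.886 to 27.3 ± 5.10 CPM (edgeR adjusted p = 0.00040). Cx3cl1 fell with PZH (-1.57, edgeR adjusted p = 0.017) and Ccl2 did not pass (-1.61, edgeR adjusted p = 0.086). Of the 8 growth factor and recruitment genes tested, 5 rose and 1 fell in DEN model against normal rats. Low counts in normal rats limit this 5 and the adjusted p of Ccl2 and Cx3cl1. Normal rats 1, 3 and 12 had 1, 4 and 4 counts for Ccl2 and 6, 2 and 24 for Cx3cl1. Under a minimum of 10 counts per rat, 5 genes of the list remained, of which 2 rose and 1 fell. In DEN + PZH against DEN model rats, 1 of the 8 rose and 3 fell. The 3 lower calls in DEN + PZH against DEN model rats, those of Csf1 and Cx3cl1 among them, became 0 without DEN model rat 13 or 24, and 1 was left without DEN + PZH rat 28. The counts of 1 lower in the first comparison and 1 higher in the second stayed at 1 whichever rat was left out. Summed over the list, the level was 478 to 627 CPM in normal, 173 to 196 CPM in DEN model and 175 to 317 CPM in DEN + PZH rats. In normal rats Csf1 was at most 14.3 CPM, and Ccl2 and Cx3cl1 averaged 0.240 and 0.822 CPM. The sum therefore came mostly from other genes of the list. Its lower level in DEN model rats does not describe Csf1, Ccl2 or Cx3cl1, each of which rose. The receptor gene Ccr2 was not analysed here.

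Of 7 Trem2 signalling genes tested, 5 rose and 1 fell in DEN model rats. Tyrobp, the adaptor through which Trem2 signals, rose by 0.85 on the log2 scale (edgeR adjusted p = 0.041) and Syk, the kinase it recruits, by 1.3 (edgeR adjusted p = 0.0048). Apoe, a lipoprotein that binds Trem2 and that hepatocytes make in quantity, fell from 9647 ± 4469 to 1846 ± 1031 CPM (edgeR adjusted p = 0.012). The 5 higher calls became 2 when DEN model rat 13 or 24 or normal rat 1 or 3 was left out. In DEN + PZH against DEN model rats 0 rose and 2 fell, and 0 fell without DEN model rat 13, DEN model rat 24 or DEN + PZH rat 42.

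Mitf, the factor that drives Gpnmb in other cell types, was at 4.13 ± 2.0, 5.26 ± 2.37 and 4.37 ± 2.61 CPM in normal, DEN model and DEN + PZH rats, and did not pass in DEN model against normal rats (edgeR adjusted p = 0.57). Of 12 lysosome genes, 3 rose and 2 fell in DEN model rats, near the shares over all genes (25.3% and 20.5%), with a median log2 fold change of 0.06. With library totals 9 were higher and 1 lower (median 0.93). Lgmn, the protease legumain, rose from 104 ± 4.84 to 367 ± 72.2 CPM (edgeR adjusted p = 0.00053) and Ctsk, a cathepsin, by 1.44 on the log2 scale (edgeR adjusted p = 0.0030). Atp6v0d2, a proton pump subunit, was called lower by 3.04, with 6, 9 and 0 counts in DEN model rats 13, 17 and 24. It entered the test only through normal rats 1, 3 and 12 (18, 28 and 27 counts), so its call adds no support and no p is given. With at least 10 counts in every rat, 3 of 11 lysosome genes rose and 1 fell. Of the 12 genes 0 rose and 2 fell in DEN + PZH against DEN model rats, and 0 fell without DEN model rat 13.

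The partners of Cd163 and Vsig4 were mostly hepatocyte products. Hp (haptoglobin), whose complex with haemoglobin Cd163 takes up, was at 9778 ± 407 CPM in normal and 3337 ± 2599 CPM in DEN model rats (log2 fold change -1.53, edgeR adjusted p = 0.060), and Hmox1, the haem-degrading enzyme, had a log2 fold change of 0.67 (edgeR adjusted p = 0.14). C3, whose fragments Vsig4 binds, was at 17236 ± 1119 and 5987 ± 3558 CPM (log2 fold change -1.51, edgeR adjusted p = 0.052). The anaphylatoxin receptors C3ar1 and C5ar1 rose by 1.93 and 1.74 (edgeR adjusted p = 0.0031 and 0.0022) and fell in DEN + PZH against DEN model rats by 1.29 and 1.32 (edgeR adjusted p = 0.025 and 0.022). Both of these lower calls were lost without DEN model rat 13, DEN model rat 24 or DEN + PZH rat 42. Of the 6 iron handling genes 1, Fth1 (ferritin heavy chain), rose in DEN model rats, and of the 7 complement genes 3 rose and 1 fell.

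Scavenger and efferocytosis receptors went both ways in DEN model rats, with 3 of 9 higher and 3 lower, beside 25.3% and 20.5% of all genes. With library totals 5 were higher and 1 lower. Colec12, a scavenger lectin, rose by 3.16 on the log2 scale (edgeR adjusted p = 0.00014) and Gas6, a ligand of the Mertk and Axl receptors, by 1.36 (edgeR adjusted p = 0.0053), while Lrp1, a large endocytic receptor, fell by 1.5 (edgeR adjusted p = 0.0058). In DEN + PZH against DEN model rats 0 of 8 rose and 3 fell, and 0 fell without DEN model rat 13 or 24 and 1 without DEN + PZH rat 28 or 42.

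**Figure D5:**
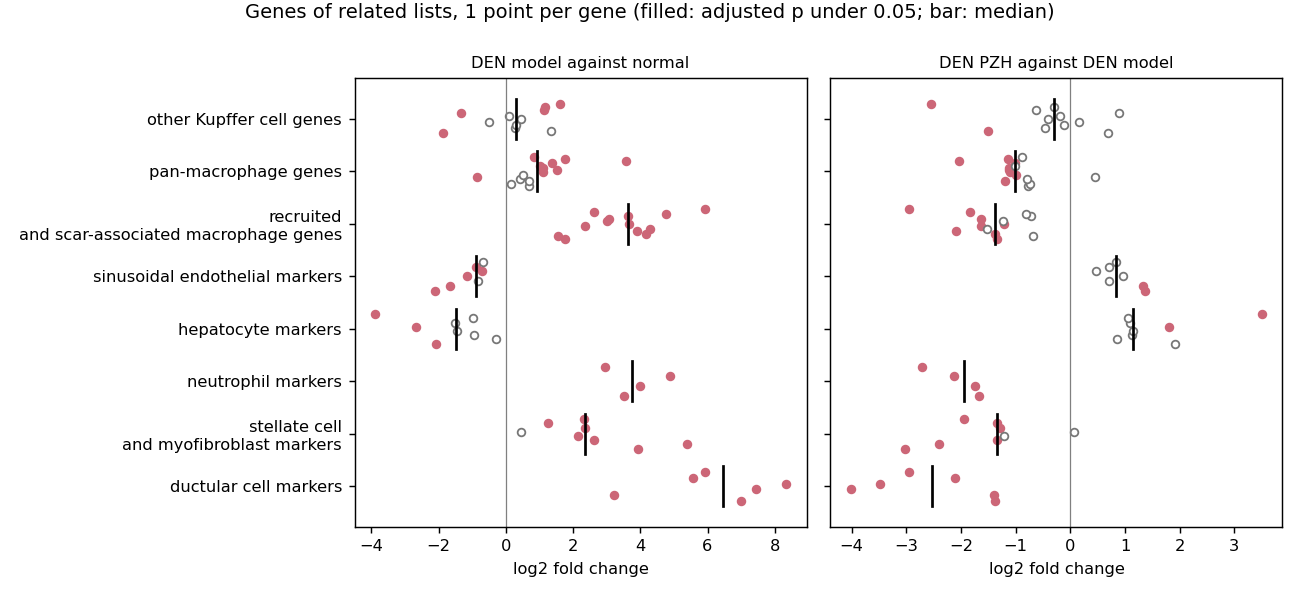
Log2 fold change (horizontal axis, TMM scale) of the genes of each list, 1 row per list, in DEN model against normal and in DEN + PZH against DEN model rats; points are genes and bars are list medians. The recruited list has medians of 3.62 and -1.38 and the list of other Kupffer cell genes 0.30 and -0.30.

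Markers of other liver cells moved with the macrophage markers. Their counts stand beside 25.3% higher and 20.5% lower over all genes. In DEN model against normal rats 6 of 6 ductular cell markers rose (summed level 13.4 to 21.1 CPM in normal and 235 to 754 CPM in DEN model rats), as did 7 of 8 stellate cell and myofibroblast markers (251 to 350 and 1047 to 2906 CPM). Of the 7 neutrophil markers 4 were tested, all of which rose (1.91 to 2.26 and 15.8 to 32.7 CPM), and Mpo, Elane and Camp, which define the granules, were at 0 in all normal rats. Low counts in normal rats limit the neutrophil and ductular counts. With at least 10 counts in every rat, 1 neutrophil and 2 ductular markers were left to test, and each rose. Hepatocyte markers fell for 3 of 8 (169760 to 180829 and 36144 to 83718 CPM) and sinusoidal endothelial markers for 5 of 7 (515 to 573 and 167 to 320 CPM), a list whose median of -0.89 became -0.05 with library totals, which left 2 lower calls. The endothelial calls numbered 2 without normal rat 1 and 3 without DEN model rat 24 or normal rat 12. Of 5 lymphocyte markers tested 2 rose (6.38 to 8.01 and 9.60 to 37.8 CPM), of 5 dendritic cell markers 1 rose (14.0 to 21.2 and 21.7 to 24.4 CPM), and of 3 red cell markers 1 rose (120 to 328 and 89.6 to 768 CPM). These last 3 counts are small, and when a rat was left out they ran from 0 to 2, from 0 to 1 and from 0 to 2.

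In DEN + PZH rats the summed levels were 80.8 to 108 CPM for ductular, 572 to 693 CPM for stellate, 4.84 to 5.56 CPM for neutrophil, 143273 to 176818 CPM for hepatocyte and 419 to 511 CPM for endothelial markers. Against DEN model rats 6 of 6 ductular, 6 of 8 stellate and 4 of 4 neutrophil markers tested fell, and 2 of 8 hepatocyte and 2 of 7 endothelial markers rose, beside 10.3% lower and 8.72% higher over all genes. The higher calls ran from 0 to 7 for hepatocyte and from 0 to 3 for endothelial markers when a rat was left out, with 0 of each without DEN model rat 13 and 7 and 3 without DEN model rat 17, and DESeq2 called 7 hepatocyte markers. Lymphocyte markers were at 3.13 to 9.25 CPM and dendritic cell markers at 28 to 41.5 CPM, with 0 called by edgeR in either direction, and red cell markers were at 68.2 to 134 CPM with 2 of 3 lower (0 to 3 when a rat was left out, and 0 without DEN model rat 13 or DEN + PZH rat 28). Leaving out a rat moved the lower calls to between 2 and 6 ductular, 2 and 7 stellate and 0 and 5 neutrophil markers. Ductular calls were down to 2 without DEN model rat 13, DEN model rat 24 or DEN + PZH rat 42, stellate calls to 2 without DEN model rat 13 or DEN + PZH rat 28, and neutrophil calls to 0 without DEN model rat 13 and to 2 without DEN model rat 24, DEN + PZH rat 28 or DEN + PZH rat 42. In DEN model against normal rats hepatocyte calls numbered 7 without DEN model rat 17 and 2 when any one of the other 5 rats was left out. The part of these cell types in the macrophage results was not tested.

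The genes whose levels followed Clec4f most closely over the 9 rats were Colec11, a collectin, with Pearson's r of 0.97, then Alkbh7, Ribc1, LOC691113 and Brf1, with r of 0.97 each. Those closest to Trem2 were Sparc, a matrix protein (0.98), Hnrnpa1 (0.97), LOC100909912 (0.97), Renbp (0.97) and Ltb, the gene of lymphotoxin beta (0.96). These values describe 9 points that share the 3 groups and their scaling, out of 13224 and 13225 genes compared. Trem2 had 0 counts in every normal rat and in DEN + PZH rats 28 and 42, and at most 46 counts elsewhere. Its correlations therefore rest on a few low values.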

How the data were processed

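Liver RNA of 9 rats was sequenced by the authors. Per the labels, fastp, HISAT2 2.1.0, StringTie 1.3.3b and edgeR 3.30.3 were used upstream, with roles, genome build and strand setting not given in the sources used here. The authors deposited raw read counts per gene and rat, and FPKM values that the authors scaled for gene length and library size. The authors' own comparisons (fold changes, p-values) were not used.

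The 10 genes, the related lists and the tests were chosen with earlier results of these data known. Counts were analysed in R 4.3.3 with edgeR 4.0.16: filterByExpr, TMM factors and quasi-likelihood tests, each fitted to the 6 rats compared and with no covariate, and Benjamini-Hochberg adjustment over all genes tested. A gene was called at an adjusted p under 0.05. Groups shown per gene are means ± SD of TMM CPM over 3 rats. No batch is given in the sources used here. The p-values of edgeR set a difference between groups against the variation between these rats, estimated with information shared over all genes. Ratios to Cd68 used counts plus 0.5 and an exact two-sided permutation test. A floor of 3 counts corresponded to 0.125 to 0.252 CPM, which covers counting error only. The pipeline was tested on simulated counts.

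Every member is named. From each related list at most 3 called genes with the largest absolute log2 fold change in DEN model against normal rats are named, together with Tyrobp, Hp, C3, Apoe, Csf1, Csf1r, Ccl2, Mitf and Hmox1, and the 5 genes most correlated with Clec4f and with Trem2 on log2(CPM + 1). Cd14 and Slc40a1 were named after their values were seen. Alternatives were DESeq2 1.42.0, library totals, upper-quartile factors, other filters and thresholds, a fit of all 3 groups, thinning of the deepest library, other reference genes and leaving out each rat in turn. Promoter sequences are from RefSeq, assembly GRCr8.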

Additional observations from a re-analysis of the deposited data

How the results depend on the processing

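No paired analysis was possible because the groups hold different rats and no matching between them is given. At the study's thresholds the genes called were 2 in DEN model against normal rats, 0 in DEN + PZH against DEN model rats and 0 in DEN + PZH against normal rats, and with an absolute log2 fold change above 1 the second comparison had 1. When each rat was left out in turn, the number called ran from 4 to 6, from 0 to 4 and from 0 to 2 in the 3 comparisons, and the number of ratios to Cd68 without overlap from 6 to 7, from 4 to 6 and from 2 to 4. With Csf1r in place of Cd68, 1 ratio did not overlap in DEN + PZH against normal rats, and with Laptm5, chosen after seeing the data, 2 did not overlap in DEN + PZH against DEN model rats.

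The log2 fold changes that changed sign were those of Cd163, Clec4f and Cd5l, with adjusted p above the threshold in each case. For Cd163 in DEN model against normal rats the value became 0.75 with library totals, 0.039 with upper-quartile factors, 0.13 without DEN model rat 24 and 0.05 without normal rat 12, and in DEN + PZH against DEN model rats 0.0028 without DEN model rat 13. In DEN + PZH against DEN model rats Clec4f became -0.093 with library totals, and Cd5l -0.26 with library totals and -0.060 without DEN + PZH rat 27. Leaving out each rat in turn gave values from -0.49 to 0.13 and from -0.88 to 0.0028 for Cd163 in these comparisons and from -0.060 to 0.81 for Cd5l in the second. The causes were not tested. Of the other recomputed log2 fold changes of the members, 279 kept direction and side of the threshold, 31 lost their call and 9 gained one.

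Among all genes, calls in DEN + PZH against DEN model rats went from 2722 to 6252 with library totals, 347 at the study's thresholds, 1178 and 1221 without DEN + PZH rats 28 and 42, and 271 and 725 without DEN model rats 13 and 24. In DEN model against normal rats 6529 genes were called, and 1753 at the study's thresholds. Against normal rats DEN + PZH rats had 696 calls, 1320 with DESeq2, 340 with at least 10 counts in every rat, 310 at the study's thresholds and 207 to 1326 when a rat was left out. Library totals moved the share of calls that were higher from 55.3% to 89.5% in DEN model against normal rats, from 45.7% to 8.89% in DEN + PZH against DEN model rats and from 78.0% to 90.0% in DEN + PZH against normal rats. With upper-quartile factors the second share was 35.7%. Depth limits what can be said of Trem2, whose highest count in any rat was 46.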
